A study of Mus musculus with 16 samples.

Results

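Coverage and cytosine non-conversion were examined for 9 genes of the basement membrane and the simple epithelial cytoskeleton in RNA bisulfite sequencing libraries of mouse embryonic stem cells. The 6 matrix genes were Lama1, Lamb1, Lamc1, Lama5, Nid1 and Hspg2, and the 3 keratin genes were Krt8, Krt18 and Krt19. They were taken by name, each with its 1 RefSeq mRNA reference, from 15330 such references in the rRNA-depleted long RNA libraries, and were chosen by their scaled coverage by genotype and replicate. These coverage values are therefore a description and are not tested for the 9 genes. All cells were of the J1 background. The groups were Dnmt2-/- cells (3 libraries) and wild-type cells (3 libraries), cultured alike on mouse embryonic fibroblast feeders with serum and a leukemia inhibitory factor supplement. Before harvest the feeders were depleted by their faster attachment to plastic. Nothing in the labels tells if replicates were separate cultures or clones, so p-values measure the spread between these libraries, which may be technical. Dnmt2, encoded by Trdmt1, methylates cytosine in tRNA.

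A basement membrane is a thin sheet of extracellular matrix beneath epithelia. Laminins, trimers of an alpha, a beta and a gamma chain, form one of its networks, and collagen IV forms the other. Nidogens and the heparan sulfate proteoglycan perlecan link the networks. In the early embryo the extraembryonic endoderm secretes large amounts of laminin with the alpha chain of Lama1, and the laminin alpha chain of Lama5 is made by the epiblast and by embryonic stem cells. Simple keratins are intermediate filaments built from pairs of a type II and a type I chain. Krt8 (type II) and Krt18 (type I) are the first keratins of the embryo, and Krt19 is a type I keratin that also pairs with Krt8. Fewer cells of a type and less RNA per cell cannot be told apart in bulk libraries.

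The 6 libraries differed in depth. Their coverage summed over listed cytosines was 93517724 to 109992584 reads in Dnmt2-/- cells, against 37786723 to 143488903 in wild-type cells, where replicate 3 was the shallowest and replicate 2 the deepest. Trdmt1 checked the labels: its scaled coverage was 1.42, 0.501 and 1.07 in the Dnmt2-/- libraries and 4.73, 3.80 and 3.21 in the wild-type libraries. Its last listed cytosine lay at transcript position 142, 84 and 142 in the Dnmt2-/- libraries and at 2439, 1973 and 1245 in the wild-type libraries. Coverage of a gene is given below as the mean number of reads over a cytosine of its transcript, scaled to the same effective depth in every library. It is a depth at a position, averaged over the cytosines listed in any of the 6 libraries. Long and short transcripts can thus be set side by side where most of their cytosines were listed. A transcript listed at few cytosines has the depth of those alone, as with Itga6 (33 cytosines), Lox (19) and Dcn (8) below. Cytosines with fewer than 3 reads are not listed and were counted as 0, which lowers low transcripts most in the shallowest library.

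One cytosine of the laminin transcripts stood far above the others in non-conversion, the share of reads in which bisulfite left a cytosine unchanged, as it does at 5-methylcytosine. At position 6453 of Lama1 (NM_008480.2; chromosome 17), with the first base of the reference as 1, 15 of 23, 8 of 13 and 9 of 19 reads were not converted in Dnmt2-/- replicates 1, 2 and 3. In wild-type replicates 2 and 3 it was 6 of 13 and 3 of 4 reads, and the position was not listed in replicate 1. The percentages were 65.2%, 61.5% and 47.4% in the Dnmt2-/- libraries and 46.2% and 75% in the wild-type libraries, so the genotypes overlapped. Summed over libraries, non-conversion was 58.2% in Dnmt2-/- cells (Wilson 95% interval 45.0% to 70.3%, 55 reads) and 52.9% in wild-type cells (31.0% to 73.8%, 17 reads). These intervals cover counting error only. The cytosine was called methylated in Dnmt2-/- cells (1-sided exact binomial tests against the background of each library, combined by Fisher's method, adjusted p = 2.47e-36). It could not be called in wild type or tested between genotypes, because a minimum of 10 reads in every library was set, which wild-type replicates 1 and 3 did not meet.

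**Figure D1:**
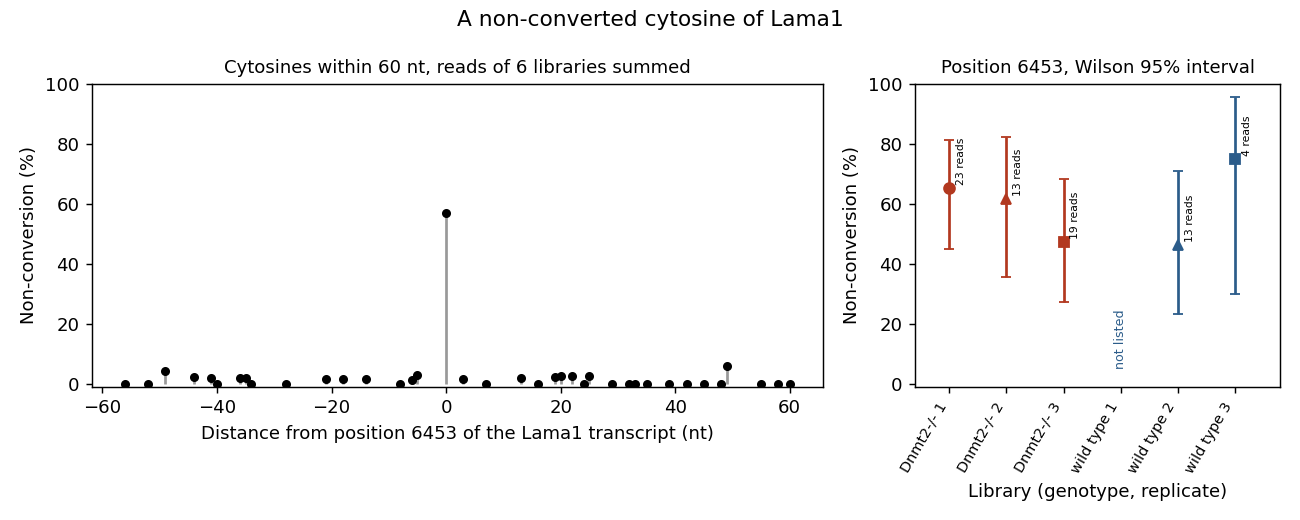
Left, non-conversion in percent at each listed cytosine within 60 nt of position 6453 of the Lama1 transcript, reads of 6 libraries summed. Right, position 6453 in each library with its Wilson 95% interval and read number; the 3 Dnmt2-/- libraries stand at 47.4% to 65.2% and the 2 wild-type libraries that list it at 46.2% and 75%.

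The plot of the Lama1 window shows a single raised cytosine. Over the 6 libraries 41 of 72 reads at the site were not converted (56.9%), against 19 of 1508 reads (1.26%) at the other 37 cytosines within 60 nt, none of which exceeded 5.88%. The nearest listed cytosines lay 5 nt upstream (2.82%) and 3 nt downstream (1.47%), so the site was not part of a run of cytosines. Among 1365927 mRNA cytosines with 10 or more reads in each Dnmt2-/- library, 19 had a mean as high as this one or higher, itself included. Among the 11084 such cytosines of the 9 genes it was the highest, and the next stood at 14.3%.

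The other called cytosines were low and lay in Hspg2 (NM_008305.3; chromosome 4), the gene of perlecan. Position 5558 stood at 5.36%, 19.2% and 14.2% in the Dnmt2-/- libraries and 11.4%, 12.5% and 26.3% in the wild-type libraries, at 35 to 113 reads. It was called in wild type (exact binomial tests combined, adjusted p = 9.82e-14) and not in Dnmt2-/- cells, where replicate 1 lay under the minimum of 10% in every library (adjusted p = 5.18e-14). Position 6215 stood at 17.1%, 8.57% and 12% in the Dnmt2-/- libraries and 11.1%, 14.0% and 18.8% in the wild-type libraries, and was also called in wild type alone (exact binomial tests combined, adjusted p = 9.83e-05, and 0.0006 in Dnmt2-/- cells). At both positions the genotypes overlapped. Cytosines within 10 nt stood at 1.26% and 1.09% over the 6 libraries.

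In all, 1 of 11084 tested cytosines of the 9 genes was called in Dnmt2-/- cells, where 0.0283% of all mRNA cytosines tested were called. In wild type it was 2 of 6274, where 0.0212% of all were called. The called numbers are too small to set the 9 genes apart from other mRNAs. Lama1 had 536 cytosines deep enough in all Dnmt2-/- libraries and 1 in all wild-type libraries, so its wild-type state was largely not measurable at this depth.

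Genotypes were compared at 62 cytosines of these genes among 8181 mRNA cytosines that had 10 or more reads in each of the 6 libraries and averaged at least 5%. With the edgeR quasi-likelihood test 0 of the 62 passed an adjusted p of 0.05, 0 had an unadjusted p under 0.05, and over all cytosines 0% were called and 2.46% had an unadjusted p under 0.05. The remaining one of the 3 highest of these cytosines, position 1675 of Krt8, stood at 3.23%, 8.11% and 5.8% in the Dnmt2-/- libraries and 27.3%, 9.09% and 18.8% in the wild-type libraries. Its groups did not overlap, but 11 to 22 wild-type reads lay behind each value, and it did not pass (edgeR log2 odds ratio -1.70, adjusted p = 0.999). Groups were also apart at others of the 62, in both directions. Position 5478 of Lama5 was higher in Dnmt2-/- cells and position 2014 of Hspg2 lower. The share of all tested cytosines without overlap was not counted, so nothing is read from this.

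Pooled over the 6221 cytosines of the 9 genes with 10 or more reads in all libraries, non-conversion was 1.69% ± 0.203 in Dnmt2-/- cells and 1.58% ± 0.0891 in wild-type cells (SD, n = 3 each). The difference of 0.113 percentage points did not pass (exact permutation test, two-sided p = 0.5, adjusted over 3 sets 0.6; 0.1 is the smallest p possible). The 6 matrix genes stood at 1.68% ± 0.203 in Dnmt2-/- cells and 1.58% ± 0.0882 in wild-type cells (exact permutation p = 0.6). The 3 keratins, with 308 cytosines, stood at 1.88% ± 0.367 in Dnmt2-/- cells and 1.51% ± 0.217 in wild-type cells (exact permutation p = 0.2, adjusted 0.6). All mRNA cytosines under the same filter stood at 1.72% ± 0.219 in Dnmt2-/- cells and 1.58% ± 0.0875 in wild-type cells, so the bulk of the cytosines of these genes lay at the level of the transcriptome.

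**Figure D2:**
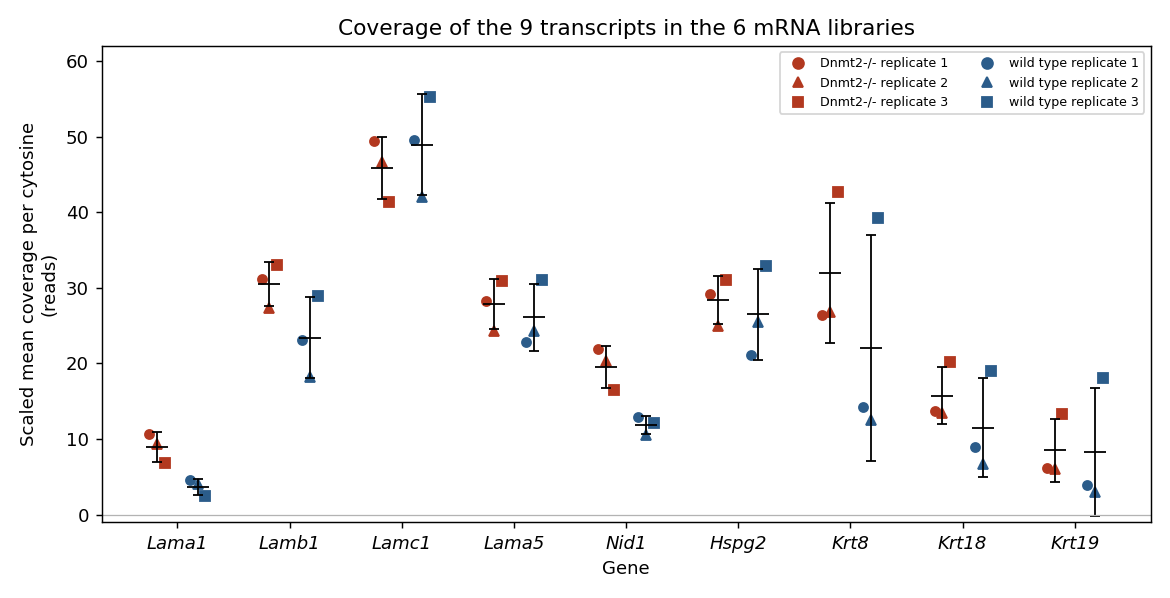
Scaled mean coverage per cytosine, in reads, of each gene in each library; black bars give mean and SD of 3 libraries per genotype. The Dnmt2-/- values of Lama1 (6.79 to 10.7) and Nid1 (16.5 to 21.9) lie above all wild-type values, and the keratins are highest in replicate 3 of both genotypes.

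In coverage, 8 of the 9 genes had a higher mean log2 value in Dnmt2-/- cells and Lamc1 had a lower one. Among all 11240 transcripts at a mean scaled coverage of 1 or more, 55.2% lay above 0. The median log2 difference, Dnmt2-/- minus wild type on the scale of log2(coverage + 0.5), was 0.40 for the 9 genes and 0.03 for all transcripts. In the limma fit over all transcripts 0 of the 9 passed, where 0% of all passed, and edgeR on rounded coverage also gave 0. An unadjusted p under 0.05 was reached by 2 of the 9 (Lama1 and Nid1) with limma, where 6.90% of all transcripts reached it (775). It was reached by 5 of the 9 with edgeR (389 of all) and by 5 with the replicate number as a block (1189 of all). Without both replicate 3 libraries it was 6 of the 9, where 1265 of 11935 transcripts reached it. All Dnmt2-/- libraries lay above all wild-type libraries in Lama1 and Nid1, and in 6.09% of all transcripts. All lay below in 0 of the 9, and in 5.85% of all. Dnmt2-/- lay above wild type in all 3 same-numbered pairs in 5 of the 9 (Lama1, Lamb1, Nid1, Krt8 and Krt18), and in 16.3% of all. Since the genes were chosen with these values known, nothing is read from these counts.

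Lama1, the laminin alpha chain of the earliest embryonic basement membranes, had the largest difference. Its scaled coverage was 10.7, 9.36 and 6.79 in the Dnmt2-/- libraries, against 4.54, 4.06 and 2.5 in the wild-type libraries. The groups did not overlap, and within each genotype replicate 3 was the lowest. The means were 8.95 ± 1.98 in Dnmt2-/- cells and 3.70 ± 1.07 in wild-type cells (SD, n = 3 each), a log2 difference of 1.18 (SE 0.258). Only 21.7% of its 2467 cytosines were listed in wild-type replicate 3, against 81.3% to 97.2% in the Dnmt2-/- libraries. Over the 449 cytosines listed in every library the log2 difference was 0.83, and after thinning all libraries to the depth of the shallowest it was 1.21. The 449 were set largely by wild-type replicate 3, which listed 534, and thus favour the positions it covered. Thinning again counted cytosines under 3 reads as 0, which lowers the lower group most.

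Nid1, which encodes a nidogen that bridges laminin and collagen IV, was the other gene whose groups were apart. It had 21.9, 20.3 and 16.5 in the Dnmt2-/- libraries and 13.0, 10.6 and 12.1 in the wild-type libraries, with means of 19.5 ± 2.79 in Dnmt2-/- cells and 11.9 ± 1.21 in wild-type cells (SD, n = 3 each) and a log2 difference of 0.69 (SE 0.154). Its promoter window is given here because its coverage was apart between genotypes; capitals mark motif matches.
Nid1: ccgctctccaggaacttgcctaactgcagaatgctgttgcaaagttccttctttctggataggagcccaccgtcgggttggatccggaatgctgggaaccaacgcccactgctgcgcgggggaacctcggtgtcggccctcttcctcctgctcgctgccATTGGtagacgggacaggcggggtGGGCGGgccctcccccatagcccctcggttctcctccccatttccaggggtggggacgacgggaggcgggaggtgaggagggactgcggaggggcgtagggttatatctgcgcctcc
The window spans chr13:13437352-13437651 on the plus strand of GRCm38.p6 (RefSeq), 250 bases before to 50 after the annotated start, and its last 50 bases hold a C at 7 of 7 cytosines that the files list there. It holds a GC box (GGGCGG) 67 bases upstream on the plus strand and a CCAAT box (CCAAT) on the minus strand. On either strand, 35.7% and 37.4% of 32851 RefSeq promoter windows hold these letters.

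The other matrix genes overlapped between genotypes. Lamb1, the beta chain, had 31.2, 27.3 and 33.0 in the Dnmt2-/- libraries and 23.2, 18.2 and 28.9 in the wild-type libraries (log2 difference 0.40, SE 0.179), and 1 wild-type library lay within the range of the Dnmt2-/- libraries. Lamc1, the gamma chain and the highest of the 9 genes, had 49.5, 46.7 and 41.3 in Dnmt2-/- cells against 49.6, 42.0 and 55.3 in wild type (log2 difference -0.09, SE 0.141). Lama5, the alpha chain known from epiblast and stem cells, had 28.3, 24.3 and 30.9 in Dnmt2-/- cells against 22.9, 24.3 and 31.1 in wild type (log2 difference 0.10, SE 0.158). Hspg2 had 29.2, 24.9 and 31.0 in Dnmt2-/- cells against 21.1, 25.5 and 32.9 in wild type (log2 difference 0.12, SE 0.179). For Lamc1, Lama5 and Hspg2 the difference was smaller than the spread between libraries. On leaving out 1 library, Lamb1 fell to 0.23 without wild-type replicate 2, Lama5 to 0.0088 without Dnmt2-/- replicate 3, and Hspg2 to -0.03 without wild-type replicate 1. Lamc1 stayed below 0, at -0.20 to -0.01, and was at 0.06 without both replicate 3 libraries.

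The keratins differed more between replicates than between genotypes. Krt8 had 26.5, 26.8 and 42.7 in Dnmt2-/- replicates 1, 2 and 3 and 14.2, 12.6 and 39.2 in the wild-type replicates. Krt18 had 13.7, 13.4 and 20.2 in Dnmt2-/- cells and 8.89, 6.66 and 19 in wild-type cells. Krt19 had 6.23, 5.98 and 13.3 in Dnmt2-/- cells and 3.88, 3.00 and 18.1 in wild-type cells. For each keratin, both replicate 3 libraries lay above the other 4, and the genotypes overlapped. The log2 differences were 0.69 (SE 0.410) for Krt8, 0.55 (SE 0.355) for Krt18 and 0.36 (SE 0.611) for Krt19. Without both replicate 3 libraries they were 0.96, 0.77 and 0.75, and without wild-type replicate 3 alone 1.19, 0.96 and 1.11. Without wild-type replicate 2 they were 0.38, 0.23 and -0.10, without wild-type replicate 1 they were 0.48, 0.44 and 0.065, and without Dnmt2-/- replicate 3 they were 0.45, 0.35 and -0.0076, so the direction of Krt19 depended on single libraries. Between libraries of the same number, Dnmt2-/- lay above wild type in all 3 pairs for Krt8 and Krt18 and in 2 of 3 for Krt19.

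**Figure D3:**
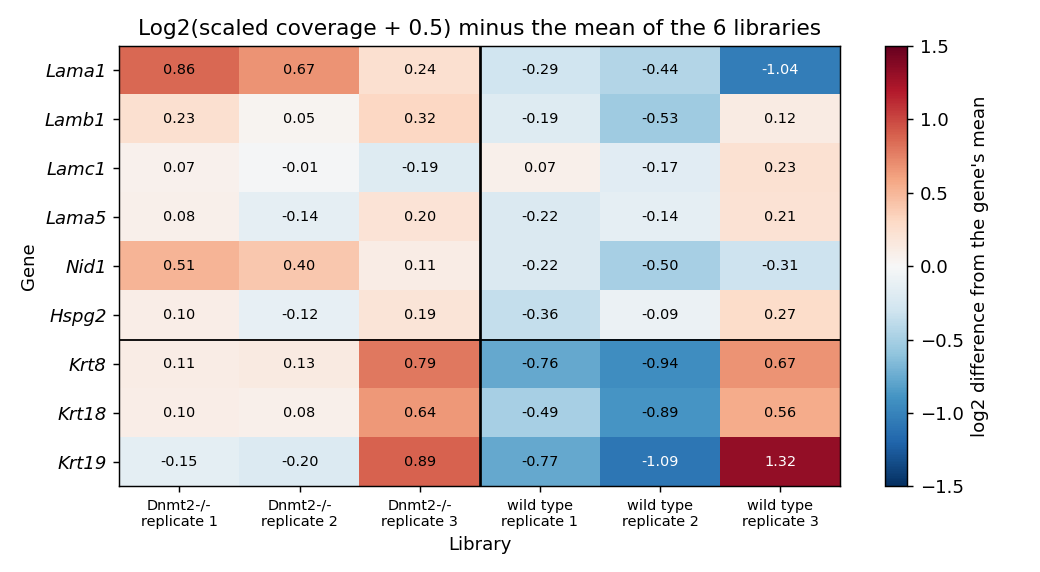
Log2(scaled coverage + 0.5) of each gene minus its mean over the 6 libraries, by library; red is above the gene's mean and blue below. Krt8, Krt18 and Krt19 are at 0.56 to 1.32 in both replicate 3 libraries and below 0 in wild-type replicates 1 and 2, whereas Lama1 is at -1.04 in wild-type replicate 3.

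Both replicate 3 libraries exceeded the other 4 in 5 of the 9 genes (Lama5, Hspg2 and the 3 keratins), where 14.5% of all transcripts did so, and in 0 of the 9 were both the lowest, where 15.2% of all were. The numbers of the replicates thus went together with coverage in many transcripts. Krt8 and Krt18 encode partner chains and lie next to each other on chromosome 15. Krt8 coverage was 1.94, 2.00 and 2.11 times that of Krt18 in the Dnmt2-/- libraries and 1.60, 1.89 and 2.06 times in the wild-type libraries. Krt19 over Krt18 ranged more widely, at 0.456, 0.445 and 0.660 in the Dnmt2-/- libraries and 0.436, 0.451 and 0.953 in the wild-type libraries. A ratio as even as that of Krt8 to Krt18 was not particular to this pair. Hspg2 over the proteoglycan gene Agrn lay at 0.764 to 1.01 over the libraries. The promoter windows of Krt8 and Krt18 are shown because the coverage of the pair went together; capitals mark motif matches.
Krt8: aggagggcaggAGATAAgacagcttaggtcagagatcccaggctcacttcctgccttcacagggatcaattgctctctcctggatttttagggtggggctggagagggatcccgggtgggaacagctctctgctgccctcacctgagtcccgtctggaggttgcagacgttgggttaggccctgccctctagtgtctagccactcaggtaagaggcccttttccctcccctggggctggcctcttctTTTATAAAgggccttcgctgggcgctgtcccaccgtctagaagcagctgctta
Krt18: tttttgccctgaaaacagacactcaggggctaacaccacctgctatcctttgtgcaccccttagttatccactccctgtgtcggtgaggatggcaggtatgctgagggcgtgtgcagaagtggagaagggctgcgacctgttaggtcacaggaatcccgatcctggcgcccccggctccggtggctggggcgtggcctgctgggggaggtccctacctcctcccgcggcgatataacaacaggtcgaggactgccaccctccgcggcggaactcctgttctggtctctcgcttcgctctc
The Krt8 window is chr15:102004293-102004592 on the minus strand and the Krt18 window chr15:102027966-102028265 on the plus strand of GRCm38.p6 (RefSeq). The search covered both strands for the GC box and the CCAAT box as given for Nid1 and for the TATA box, spelled TATAAA. It also covered the letters that AP-1 factors are known to bind, TGANTCA, which 7.81% of all windows hold. The letters searched for GATA factors were AGATAA. Those searched for SOX factors were ACAAT, which 31% of all windows hold. The Krt8 window held TATAAA on both strands, overlapping, at the annotated start, and AGATAA once. These are found in 13.6% and 11.2% of all windows. The Krt18 window held none of the letters searched. The windows had 6 and 17 CG dinucleotides and 58.0% and 61.3% G and C. A GC box was found in 4 of the 6 windows available for these genes (Lamb1, Lama5, Nid1 and Hspg2), and in 35.7% of all windows. With so few windows nothing is read from this count. For Lamb1 only 4 of 11 listed cytosines matched a C in the last 50 bases, so its window may not belong to the reference in the files (NM_008482.2) and is not shown.

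Within a gene, coverage was uneven along the transcript. Lamc1 had 2.92 to 3.37 times the coverage over the first 1 in 3 of its cytosines as over the last 1 in 3 in the Dnmt2-/- libraries and 2.91 to 4.32 times in the wild-type libraries. For Nid1 the ratio was 1.67 to 3.75 in the Dnmt2-/- libraries and 2.15 to 5.46 in the wild-type libraries, the highest value of each genotype being replicate 3. Hspg2, the longest with listed cytosines up to position 14138, was even, at 1.15 to 1.31 in the Dnmt2-/- libraries and 1.21 to 1.25 in the wild-type libraries. The keratins ran the other way, at 0.872 to 0.903 for Krt8 in the Dnmt2-/- libraries and 0.746 to 0.949 in the wild-type libraries. The ratio of Krt18 was 0.381 to 0.791 in the Dnmt2-/- libraries and 0.188 to 0.802 in the wild-type libraries. That of Krt19 was 0.404 to 0.534 in the Dnmt2-/- libraries and 0.230 to 0.962 in the wild-type libraries. Over all transcripts with 100 or more cytosines the median ratio was 1.39 to 1.58 in the Dnmt2-/- libraries and 1.41 to 1.63 in the wild-type libraries, and replicate 3 was the highest in both genotypes. The part of this difference between replicates in the coverage values was not tested.

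**Figure D4:**
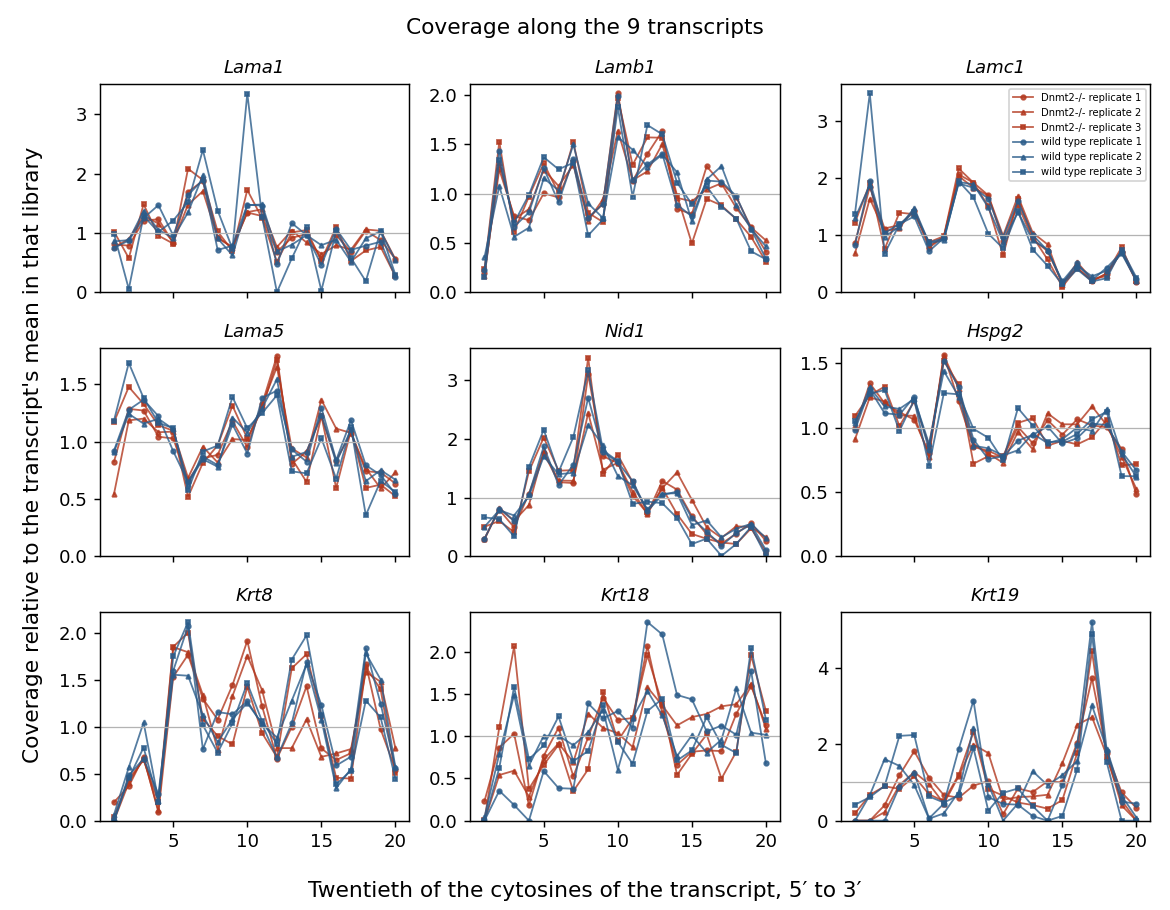
Coverage along each transcript in 20 bins with equal numbers of cytosines, 5′ to 3′, relative to the transcript's mean in that library (1 is the mean). Most libraries follow like profiles in the long matrix transcripts. Wild-type replicate 3, the shallowest, departs in Lama1 (0 in bin 12, 3.35 in bin 10) and in Lamc1 (3.5 in bin 2). Lamc1 and Nid1 drop towards the 3′ end, and the keratins are low at the 5′ end.

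Ordered by the mean of the 6 libraries, scaled coverage per cytosine was 47.4 for Lamc1, 27.4 for Hspg2, 27.0 for Krt8, Lama5 and Lamb1, 15.7 for Nid1, 13.6 for Krt18, 8.42 for Krt19 and 6.32 for Lama1. The ranges over libraries of the 4 genes near 27 overlapped, as did those of Nid1 and Krt18 and of Krt19 and Lama1. The order differed between genotypes: Lama1 averaged 8.95 and Krt19 8.51 in Dnmt2-/- cells, against 3.70 and 8.33 in wild-type cells, and Krt8, at 32.0 in Dnmt2-/- cells and 22 in wild-type cells, was the highest of those 4 in Dnmt2-/- cells and the lowest in wild-type cells. Lamc1 exceeded 94.7% of all transcripts and Lama1 64.3%. Of these alpha chains Lama5 had the higher coverage: Lama1 stood at 0.378, 0.384 and 0.219 of Lama5 in the Dnmt2-/- libraries and at 0.198, 0.167 and 0.0805 in the wild-type libraries.

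The transcripts whose profile over the 6 libraries was most like the mean profile of the 9 genes were Bcam, Etv5, Dusp6, Grcc10 and Usf1. Their root mean square log2 difference from it was 0.037, 0.065, 0.084, 0.095 and 0.10 among 4016 candidates at a mean scaled coverage of 10 or more, where the 9 genes themselves stood 0.37 from their own mean. Bcam had 34.4, 31.1 and 39.8 in the Dnmt2-/- libraries and 23.1, 20.0 and 36.2 in the wild-type libraries.

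**Figure D5:**
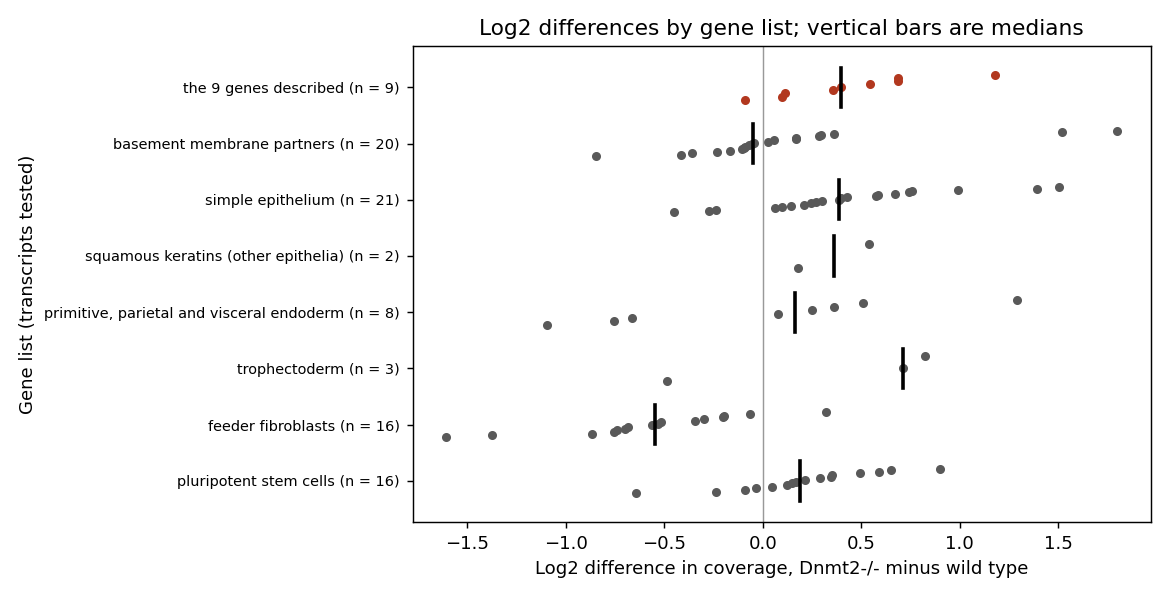
Log2 difference in coverage, Dnmt2-/- minus wild type, of each tested transcript (point) by gene list, with the list's median as a vertical bar. The 9 genes have a median of 0.40, the simple epithelium list 0.39 and the feeder fibroblast list -0.55.

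Partners of the matrix genes did not move as 1 group. Of 31 basement membrane partners 20 were tested, of which 9 lay above 0 and 11 below, with a median log2 difference of -0.05. With limma 0 passed and 3 had an unadjusted p under 0.05. For this and the following lists, 55.2% of all tested transcripts lay above 0 and 6.90% had an unadjusted limma p under 0.05. Nid2, the second nidogen, had 65.5, 59.8 and 67.4 in the Dnmt2-/- libraries and 51.9, 47.9 and 58.2 in the wild-type libraries (log2 difference 0.29). The chains of collagen IV were low: Col4a1 had 4.94, 4.34 and 3.30 in Dnmt2-/- cells against 5.02, 5.18 and 6.24 in wild type, and Col4a2 had 3.28, 3.14 and 2.78 in Dnmt2-/- cells against 3.35, 3.04 and 3.54 in wild type. Itgb1, the beta subunit of the main laminin receptors, had 45.1, 53.6 and 45.2 in the Dnmt2-/- libraries and 105, 70.0 and 87.6 in the wild-type libraries, without overlap (log2 difference -0.85, limma adjusted p = 0.368). In 5.85% of all transcripts all Dnmt2-/- libraries lay below. Agrn, a proteoglycan like perlecan, differed by -0.06, the laminin receptor subunit Itga6 by -0.17, and Dag1, covered at 12 cytosines and unlisted in wild-type replicates 1 and 3, by 1.80 on the log2 scale.

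Of 26 simple epithelium genes 21 were tested, of which 18 lay above 0 and 3 below, with a median log2 difference of 0.39; with limma 0 passed and 3 had an unadjusted p under 0.05. Epcam, an epithelial adhesion molecule of stem cells, had 102, 100 and 131 in the Dnmt2-/- libraries and 84.6, 65.5 and 106 in the wild-type libraries (log2 difference 0.40). Cdh1, E-cadherin, had 23.1, 28.0 and 27.7 in Dnmt2-/- cells against 34.4, 32.8 and 41.1 in wild type, a difference the other way (log2 difference -0.45). Krt7, another simple keratin, stood under the coverage filter at 1.47, 1.12 and 2.65 in Dnmt2-/- cells against 0, 0.289 and 0.244 in wild type. Of 8 keratins of squamous epithelia, 2 were tested, and both lay above 0.

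The endoderm list was mixed. Of 22 endoderm genes 13 had a reference and 8 were tested, 5 above 0 and 3 below, with 0 passing limma and 2 at an unadjusted p under 0.05. Gata6 had 2.15, 1.52 and 0.548 in the Dnmt2-/- libraries and 0.475, 0.931 and 1.40 in the wild-type libraries, and Gata4 1.02, 1.60 and 0.853 in Dnmt2-/- cells against 0.685, 1.64 and 0.512 in wild type. Sox17 was among the listed genes for which no reference was found. Among the others, named after their values were seen, Apoe, which many cell types express, averaged 277 in Dnmt2-/- cells and 263 in wild-type cells. Lefty1, also expressed by stem cells, averaged 105 in Dnmt2-/- cells and 180 in wild-type cells, with all Dnmt2-/- libraries below. The endocytic receptor gene Lrp2 averaged 6.95 in Dnmt2-/- cells and 4.71 in wild-type cells, and Amn, which encodes a partner of the receptor cubilin, 1.93 in Dnmt2-/- cells and 0.611 in wild-type cells, both with all Dnmt2-/- libraries above. Over all transcripts, 6.09% had all Dnmt2-/- libraries above and 5.85% all below. The part of endoderm-like cells in the coverage of the 9 genes was not tested. Of 11 trophectoderm genes 3 were tested, 2 above 0, with 0 passing limma and 0 at an unadjusted p under 0.05. The 17 pluripotency genes summed to 2570 to 3361 in the Dnmt2-/- libraries and 2355 to 2707 in the wild-type libraries. Without Dppa5a, the highest of them, the sums were 1169 to 1396 in the Dnmt2-/- libraries and 1279 to 1344 in the wild-type libraries. Of the 17, 16 were tested, 12 above 0 and 4 below (median log2 difference 0.19), with 0 passing limma and 5 at an unadjusted p under 0.05. All Dnmt2-/- libraries lay above in 4 of the 16 and below in 1 (Klf2).

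Feeder fibroblast markers lay mostly below 0. Of 20 genes 16 were tested, of which 15 lay below 0 and Tagln above, with a median log2 difference of -0.55; with limma 0 passed and 2 had an unadjusted p under 0.05. Their summed coverage was 120 to 154 in the Dnmt2-/- libraries and 186 to 355 in the wild-type libraries, highest in wild-type replicate 3. Without Vim the sums were 114, 111 and 79.4 in the Dnmt2-/- libraries and 102, 101 and 158 in the wild-type libraries, so the genotypes overlapped. Vim, the intermediate filament of fibroblasts that stem cell cultures also express, had 39.5, 38.0 and 41.0 in the Dnmt2-/- libraries and 107, 85.1 and 196 in the wild-type libraries. Dcn was at 0 in all libraries except wild-type replicate 3, and Lox was at 0 in the Dnmt2-/- libraries and in wild-type replicate 3. Fibroblasts also make laminin and nidogen, and the part of these cells in the coverage of the 9 genes was not tested.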

How the data were processed

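The deposited values are, per the file headers, a raw read count (coverage) at every listed cytosine and the fraction of those reads left unconverted. BSMAP and mm9 are named in the submitters' processing notes, with no version or filter in the sources used. The 6 rRNA-depleted long RNA libraries (over 200 nt) were used, since the other 10 of 16 hold tRNA or rRNA references. Coverage times ratio was within 0.01 of a whole number throughout, so non-converted counts were recovered. References were named through a RefSeq table of GRCm38.p6 (15239 of 15330 matched).

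Transcript coverage was averaged over cytosines listed in any library, scaled by TMM factors (edgeR 4.0.16, R 4.3.3), filtered at a mean of 1 and fitted with limma 3.58.1 (trend) on log2(value + 0.5), which shrinks the differences of low transcripts. For each cytosine, genotypes were compared by edgeR quasi-likelihood with a term per library; methylation was called within a genotype against the background (non-conversion pooled over cytosines at 10% or less). Benjamini-Hochberg adjustment ran over all features at 0.05. The limma and edgeR fits were first run on simulated data. Same-numbered libraries of the genotypes deviated together (correlations of deviations from the group means 0.253, 0.154 and 0.534 over 6186 transcripts). Some libraries of unlike number also deviated together, with 0.441 for Dnmt2-/- replicate 2 and wild-type replicate 1 and 0.192 for Dnmt2-/- replicate 1 and wild-type replicate 2. Pairing by number was thus plain for replicate 3 only. The main tests did not pair the libraries, and the replicate number as a block was an alternative setting. DESeq2 1.42.0 gave alternative size factors.

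The genes and lists were chosen with earlier results of these data known. Set to be named were the 9 genes, 13 partner genes set by name, list transcripts that pass, called cytosines and the 3 highest, and the 5 most like transcripts. No list transcript passed. Other list genes, among them Vim, Tagln, Dcn, Lox and Dppa5a, were named after their values were seen.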

Additional observations from a re-analysis of the deposited data

How the results depend on the processing

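In coverage, 0 transcripts passed under the settings tried, with 2 exceptions of 1 transcript each, over cytosines listed in all 6 libraries and without Dnmt2-/- replicate 1 (leaving out a library gave 0 to 1); none of these was among the 9 genes. The median log2 difference of the 9 genes was 0.23 to 0.70 on leaving out a library, lowest without wild-type replicate 2 and highest without wild-type replicate 3, 0.75 without both replicate 3 libraries, and 0.70 with edgeR on rounded coverage. With the replicate number as a block, 0 transcripts and 0 cytosines passed between genotypes. The block cannot change the median of 0.40 or the pooled non-conversion difference of 0.113 points, because each number occurs in both genotypes. Called cytosines of the 9 genes in Dnmt2-/- cells numbered 1 of 11084, where 387 of all 1365927 mRNA cytosines were called. At a coverage minimum of 20 it was 0 of 6929, where 217 of all 736018 were called. With no minimum non-conversion it was 9 of 11084, where 4004 of all 1365927 were called. Leaving out a library gave 1 to 3. It was 3 of 11264 without Dnmt2-/- replicate 1 (510 of 1.45e+06 of all) and 2 of 11760 without replicate 2 (548 of 1.51e+06 of all). In wild type they numbered 2 of 6274, where 162 of all 765735 were called. At a minimum of 20 it was 1 of 2184, where 77 of all 344065 were called. With no minimum non-conversion it was 7 of 6274, where 2362 of all 765735 were called. On leaving out wild-type replicates 1, 2 and 3 in turn it was 2 each time. Of all cytosines 216 of 800259, 237 of 767595 and 357 of 1.49e+06 were then called. Between genotypes 0 cytosines passed, and 1 of 22136 without wild-type replicate 3 (0 to 1 on leaving out a library). The pooled difference was 0.0496 to 0.230 points on leaving out a library (exact permutation p = 0.1 without Dnmt2-/- replicate 3, the smallest possible). The cause of these changes was not tested. Thinning to the shallowest library and the list sums without their highest gene were chosen after seeing the data. Depth limits Lama1 and Krt19 most.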
